A study of Mus musculus with 69 samples.

Results

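Metabolic stress was added to vasoactive hormones in wild type (WT) vascular smooth muscle cells (VSMC) from the mouse aorta, and the transcriptome of cells exposed to ALL stressors was compared with that of cells exposed to the hormones alone. The 8 libraries labelled WT VSMC with the treatments AII + NA or ALL were used, of 69 libraries in the series, and they form 4 pairs in the sample sets 1 to 4. AII + NA libraries came from cells kept for 24 h with 30 nM angiotensin II and 300 nM of a catecholamine, which the labels call epinephrine and the study's methods norepinephrine. ALL libraries came from sister cultures that received the same hormones plus HG + FFA, which is 20 mM glucose and 100 µM free fatty acids by the labels, while the study's methods give this concentration for each of oleate and palmitate. The comparison therefore isolates the added HG + FFA on a hormone background and reads no Control library as its reference. All 4 sets were primary aortic cultures from male C57BL/6 mice without the Egfr deletion, passaged before use, deprived of serum for 24 h and then treated in serum-free medium with fatty acid-free albumin, and each set is 1 animal. The Control and HG + FFA libraries of the same sets, and the ALL and AII + NA libraries of VSMC lacking EGFR in smooth muscle (KO VSMC) and of endothelial cells (EC), serve below for comparison only.

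Smooth muscle cells take up fatty acids through carriers such as CD36 and burn them in mitochondria, and the peroxisome proliferator-activated receptors (PPAR) are nuclear receptors that bind fatty acids and switch on genes of fatty acid handling. Cholesterol supply is governed by the SREBP2 and LXR transcription factors, of which the first raises synthesis and uptake when membrane sterol is scarce and the second responds to oxysterols and raises export. Angiotensin II and catecholamines act on G protein-coupled receptors of the vessel wall, and long exposure to them, to glucose and to lipids is associated with a shift of VSMC away from the contractile state.

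The 8 libraries held 23626664 to 32798206 counts, and normalization factors lay between 0.931 and 1.02. Acta2, the smooth muscle actin gene, was measured at 1158, 673, 1784 and 1455 FPM under AII + NA in sets 1 to 4. Under ALL stressors it stood at 1002, 960.3, 887 and 1254 FPM. In EC its mean level was 939 FPM under AII + NA and 966 FPM under ALL stressors. The sum of the 8 VSMC markers ran from 830 to 2037 FPM (counts scaled to a common library size) under AII + NA and from 1076 to 1508 FPM under ALL stressors, and 0 of the 8 reached an unadjusted p under 0.05 in either direction. Tagln shares 66.7% of its exonic bases with exons of another gene, so that its level is uncertain. The 6 fibroblast markers summed to 3107.1 to 5012 FPM under AII + NA and to 2390 to 4976 FPM under ALL stressors, the 6 leukocyte and macrophage markers to 43 to 228 FPM and 44.9 to 164 FPM, and the 7 endothelial markers to 1.82 to 45.3 FPM and 1.17 to 24.9 FPM. None of the 5 adipocyte markers was expressed highly enough to be tested.

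Addition of HG + FFA to the hormones changed 91 of 16905 genes tested (0.538%), of which 47 rose (0.278%) and 44 fell (0.26%). A differentially expressed gene (DEG) had a false discovery rate (FDR) under 0.05 by both edgeR's quasi-likelihood test and DESeq2, a log2 fold change (log2FC) of at least 0.64 in size and reached 3 FPM on average in either group. Only protein-coding genes (88 of the DEG) and long non-coding RNAs (3) could be called. With all gene types admitted, 92 genes met the other criteria. The DEG had a median size of 0.88 and a range from -1.76 to 2.24 on the log2 scale, and 35 of them changed at least 2-fold. Each of the 91 moved in one direction in 4 of 4 sets, which 19.1% of all genes tested did, and for 24 of the 91 the 4 levels under ALL stressors did not overlap the 4 under AII + NA, against 1.65% of all genes. In bulk libraries, fewer cells of a type and less RNA per cell cannot be told apart. Without the pairing by set, 0 genes met the definition (432 at an unadjusted p under 0.05, 0 at FDR under 0.05 by edgeR and 6 by DESeq2), while libraries of the same set deviated together from their group means, at correlations of 0.443 to 0.811.

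**Figure D1:**
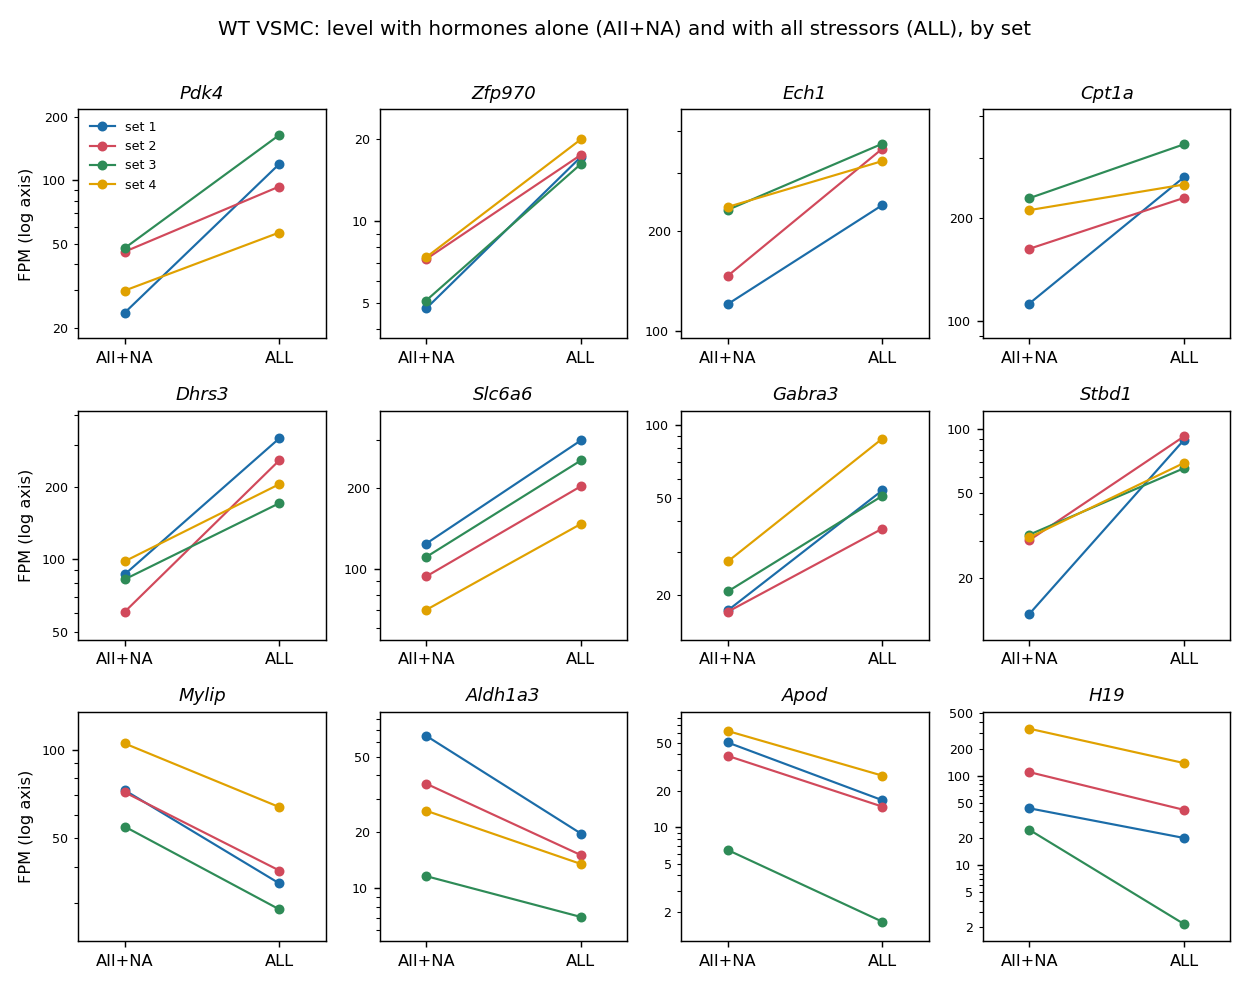
Levels of selected DEG in WT VSMC under AII + NA and under ALL stressors, in FPM on a log axis, with a line joining the 2 libraries of each of sets 1 to 4. Lines run upward in every set for genes such as Pdk4, Dhrs3 and Slc6a6 and downward in every set for genes such as Apod and Mylip, while the sets start from different levels.

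Several genes that carry and burn fatty acids rose. Of 21 tested PPAR-responsive genes, 4 were DEG and 11 had an unadjusted p under 0.05 on the higher side (6.96% of all genes did), against 0 on the lower side (7.35% of all genes), with a median log2FC of 0.37 against 0.01 over all genes. Without set 2 the median was 0.20. Pdk4 (ENSMUSG00000019577, chr6:5483097-5496339, GRCm39), the kinase that blocks pyruvate dehydrogenase and so spares glucose when fat is burned, stood at 23.5, 45.8, 47.6 and 30 FPM under AII + NA in sets 1 to 4 and 119, 93.3, 164 and 56.5 FPM under ALL stressors. Every ALL library lay above every AII + NA library (log2FC 1.52, SE 0.23, edgeR FDR 0.00442). Cpt1a (ENSMUSG00000024900, chr19:3371853-3437996), which passes long-chain fatty acids into mitochondria, stood at 112, 163, 229 and 211 FPM under AII + NA in sets 1 to 4 and 264, 229.5, 329.9 and 251 FPM under ALL stressors. Its highest hormone-only level, in set 3, was just under its lowest level under ALL stressors, in set 2 (log2FC 0.64, SE 0.14, edgeR FDR 0.0304).

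Cd36 (ENSMUSG00000002944, chr5:17986432-18094067), the fatty acid carrier, was thinly counted, at 0.881, 1.24, 0 and 0.611 FPM under AII + NA in sets 1 to 4 and 8.01, 3.92, 0.173 and 0.794 FPM under ALL stressors. The rise was carried by sets 1 and 2, while sets 3 and 4 stayed at under 1 FPM in both conditions (log2FC 2.0, SE 0.39, edgeR FDR 0.0192). Without set 1 its log2FC was 1.33 (edgeR FDR 0.24), without set 2 2.23 (0.0856) and without set 3 1.94 (0.0549). The calls of Pdk4 (edgeR FDR 0.0649) and Cpt1a (0.146) were lost without set 3, and that of Cpt1a also without set 1 (0.153) or set 2 (0.0778). Angptl4, a secreted inhibitor of lipoprotein lipase and a classical PPAR target, lay just outside the definition. It was measured at 88.2, 422, 276 and 437 FPM under AII + NA in sets 1 to 4 and 465, 579.7, 768 and 700.5 FPM under ALL stressors, with the groups apart, and reached log2FC 1.22, SE 0.29, edgeR FDR 0.0501.

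Of 25 genes of fatty acid oxidation, 11 were higher at an unadjusted p under 0.05 and 0 lower, and 2 were DEG, Cpt1a and Ech1. Ech1 (ENSMUSG00000053898, chr7:28524036-28531674), an isomerase that handles unsaturated fatty acids during oxidation, was measured at 121, 147, 232 and 237 FPM under AII + NA in sets 1 to 4 and 240.1, 355, 367 and 326 FPM under ALL stressors. The 4 levels under ALL stressors all exceeded the 4 under hormones alone (log2FC 0.84, SE 0.13, edgeR FDR 0.00414), and the call held whichever set was left out. Acaa2, the last thiolase of the pathway, had an edgeR FDR of 0.0247 at a log2FC of 0.56, under the size threshold. The median log2FC of the list was 0.16, and 0.091 without set 2. Of the genes of lipid storage, 2 of 13 lipid droplet and lipolysis genes rose, the hormone-sensitive lipase Lipe (log2FC 0.71 ± 0.11, SE) and the droplet coat gene Plin4 (0.79 ± 0.14), while the coat gene Plin2 had a log2FC of 0.37 (edgeR FDR 0.125). Both share exonic bases with other genes, 22.3% for Lipe and 39.1% for Plin4, so that their levels are uncertain. The Lipe call was lost without set 1, where its log2FC was 0.61, or set 3 (edgeR FDR 0.0549), and that of Plin4 without set 1 (edgeR FDR 0.0947) or set 2 (0.102). Among 18 genes of fatty acid uptake and activation, Cd36 was the only DEG, with 5 genes higher and 1 lower at an unadjusted p under 0.05, and 2 higher without set 2.

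Cholesterol genes leaned to the higher side, and 2 of them were DEG. All 25 genes of cholesterol synthesis and uptake had a higher estimate under ALL stressors, as did 8692 of all 16905 genes tested. Of the 25, 20 were higher at an unadjusted p under 0.05 (6.96% of all genes were), with a median log2FC of 0.43. Without set 1 that count was 13, and without set 3 it was 14. Srebf2, which encodes SREBP2, passed the test with a log2FC of 0.44 (edgeR FDR 0.0472), under the size threshold.

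LXR-responsive genes leaned to the lower side, with 1 DEG. Of 9 tested, 6 were lower at an unadjusted p under 0.05 and 0 higher, a count that stood at 6 without any one set, with a median log2FC of -0.35. Mylip (ENSMUSG00000038175, chr13:45543215-45565501), a ubiquitin ligase induced by LXR, was measured at 72.9, 71.7, 54.8 and 105 FPM under AII + NA in sets 1 to 4 and 35.1, 38.8, 28.6 and 63.8 FPM under ALL stressors. It fell in each set by a similar ratio, and only set 4 under ALL stressors overlapped the hormone-only levels (log2FC -0.90, SE 0.14, edgeR FDR 0.00418). Abca1, the pump that loads cholesterol onto apolipoprotein A-I, went from 258 ± 63.8 FPM (SD, n = 4) to 161 ± 65.5 FPM, with an edgeR FDR of 0.0529. Srebf1 and Lpcat3 passed the test at log2FC -0.29 and -0.35 (edgeR FDR 0.0306 and 0.044), and Apoe had a log2FC of -0.40 (edgeR FDR 0.117). Fatty acid synthesis and desaturation held 0 DEG of 14, with the desaturase Fads1 at 0.62 (edgeR FDR 0.0127) and Acly, which supplies acetyl-CoA, at 0.37 (0.0472).

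**Figure D2:**
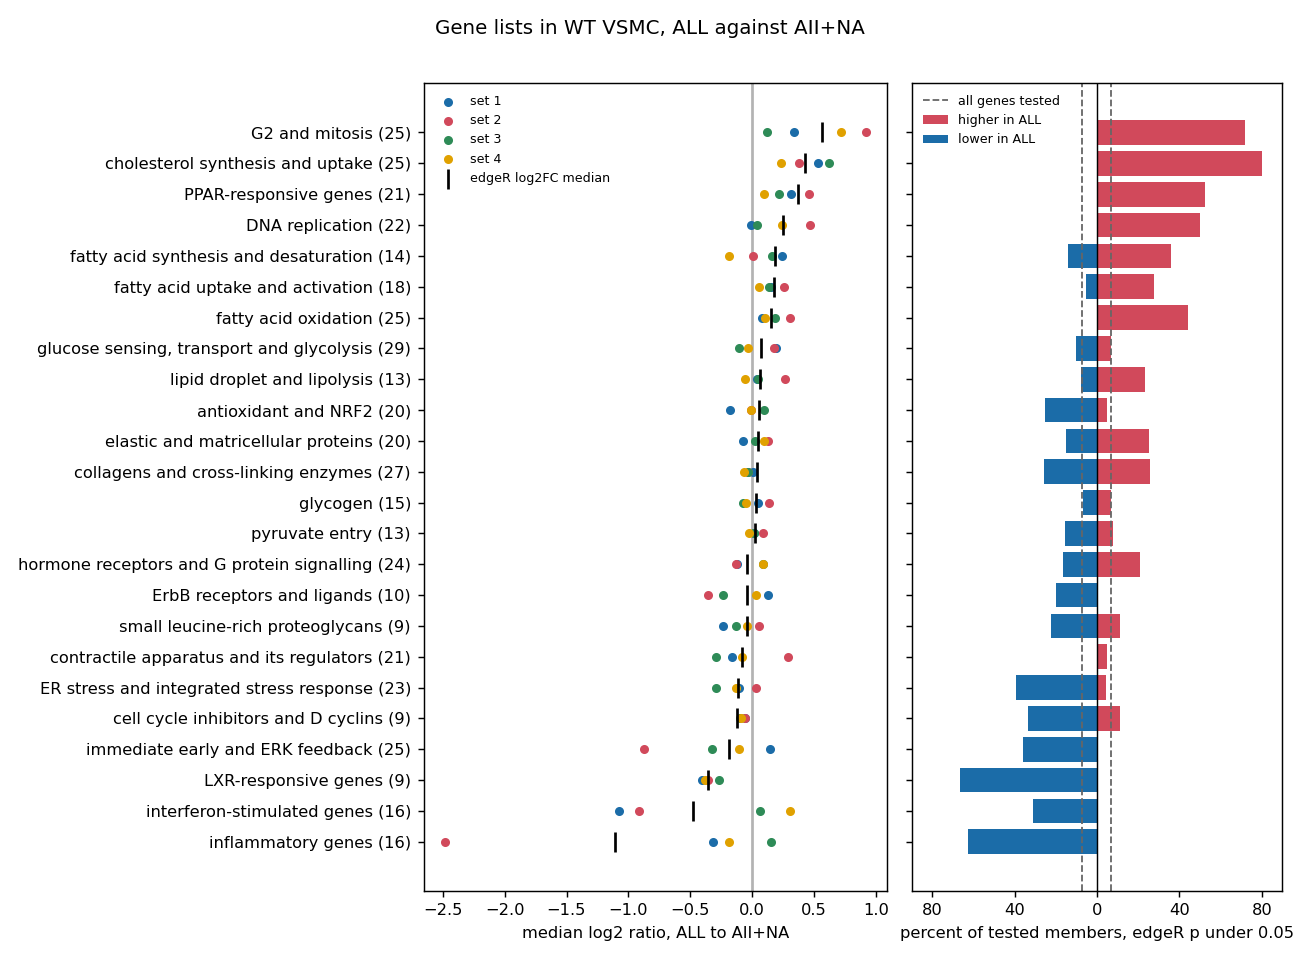
Gene lists in WT VSMC, ALL stressors against AII + NA, with the number of tested members behind each name. On the left, points are the median log2 ratio of each of sets 1 to 4 and the black bar the median edgeR log2FC; on the right, bars give the percent of tested members at an unadjusted p under 0.05, higher (red) or lower (blue), with dashed lines for all genes. G2 and mitosis and cholesterol genes have medians of 0.57 and 0.43 and inflammatory genes -1.11, where set 2 stands far to the left.

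Few genes of glucose handling were called. Among 29 genes of glucose sensing, transport and glycolysis 2 were higher and 3 lower at an unadjusted p under 0.05, a share close to that of all genes (14.3%), and 1 was a DEG. That gene was Arrdc4 (ENSMUSG00000042659, chr7:68386742-68398999), an arrestin domain protein that limits glucose uptake and is a known target of the sugar sensor ChREBP, measured at 41.9, 30.6, 30.5 and 26.3 FPM under AII + NA in sets 1 to 4 and 20, 7.0, 27.7 and 13.8 FPM under ALL stressors. It fell in each set, least in set 3 (log2FC -0.98, SE 0.23, edgeR FDR 0.0492), and in the omissions it was called only without set 3 (edgeR FDR 0.0368). Stbd1 (ENSMUSG00000047963, chr5:92750891-92754438), which tethers glycogen to membranes, was the only DEG of 15 glycogen genes, at 13.6, 30.1, 32 and 31.1 FPM under AII + NA in sets 1 to 4 and 89.3, 92.8, 65.7 and 69.6 FPM under ALL stressors. The rise was largest in set 1, and all 4 ALL libraries lay above all 4 AII + NA libraries (log2FC 1.60, SE 0.28, edgeR FDR 0.00945; without set 2, edgeR FDR 0.0521). Of 13 genes of pyruvate entry, Pdk4 was the only DEG. The Arrdc4 promoter is shown here because it holds an E box, the core letters of ChREBP binding sites, and because its gene was the DEG of this list. Printed are the 250 bases before the start of the canonical transcript (GRCm39, GENCODE, chr7:68399000-68399249, minus strand). Capitals mark CACGTG and CCAAT, or ATTGG on the other strand. CACGTG occurs in the window from 250 bases before to 50 after the start of 7.82% of 21757 promoters of protein-coding genes. Among 88 DEG promoters the share was 6.82%, and binding of ChREBP was not tested.
Arrdc4: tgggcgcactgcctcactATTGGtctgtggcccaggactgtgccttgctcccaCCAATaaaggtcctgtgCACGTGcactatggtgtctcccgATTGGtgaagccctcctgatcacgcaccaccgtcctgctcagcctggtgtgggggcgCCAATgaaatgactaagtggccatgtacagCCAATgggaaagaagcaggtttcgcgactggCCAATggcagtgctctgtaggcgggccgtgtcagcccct

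A few genes of cell division rose, all of them counted at a low level. Of 25 genes of G2 and mitosis, all had a higher estimate, as did 8692 of all 16905 genes tested, and 5 were DEG. At an unadjusted p under 0.05, 18 of the 25 were higher (6.96% of all genes were), with a median log2FC of 0.57. Top2a (ENSMUSG00000020914, chr11:98883769-98915062), the topoisomerase that untangles replicated DNA, stood at 16.8, 11.7, 3.09 and 9.2 FPM under AII + NA in sets 1 to 4 and 24.3, 27.5, 6.74 and 12.8 FPM under ALL stressors. It rose in every set, most in sets 2 and 3 (log2FC 0.83, SE 0.14, edgeR FDR 0.00762). Mki67, the proliferation marker, changed by 0.93 ± 0.17 (log2FC, SE), the mitotic motor gene Kif11 by 0.91 ± 0.20, the Aurora kinase gene Aurkb by 1.16 ± 0.24 and the cyclin gene Ccnb2 by 0.70 ± 0.15. DNA replication genes held 0 DEG of 22, with 11 higher and 0 lower at an unadjusted p under 0.05 and a median log2FC of 0.25. These counts leaned on set 2 and on set 4: without set 2 there were 9 of the 25 mitotic and 0 of the 22 replication genes at an unadjusted p under 0.05, and without set 4 there were 11 and 5. The median of the replication genes without set 2 was 0.15. Aurkb, Ccnb2 and Kif11 were called in none of the 4 omissions, Top2a was lost without set 2 (edgeR FDR 0.0825) or set 3 (0.0847), and Mki67 without set 1 (0.113) or set 2 (0.101). Among 9 cell cycle inhibitors and D cyclins, Cdkn1c, which encodes the inhibitor p57, had a log2FC of -0.62 (edgeR FDR 0.0121), just under the size threshold.

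All 5 mitotic DEG hold a CCAAT box within 250 bases before to 50 after their start, a motif known from promoters of cell cycle genes and bound by NF-Y. It occurs in 39.9% of 21757 promoters and in 42 of 88 DEG promoters (47.7%). The 3 promoters below are shown because they hold it several times, and the capitals mark CCAAT or its reverse complement ATTGG, or CACGTG. They are the 250 bases before the start (GRCm39, GENCODE), for Top2a chr11:98915042-98915291, minus strand, for Ccnb2 chr9:70328875-70329124, minus strand and for Aurkb chr11:68936217-68936466, plus strand.
Top2a: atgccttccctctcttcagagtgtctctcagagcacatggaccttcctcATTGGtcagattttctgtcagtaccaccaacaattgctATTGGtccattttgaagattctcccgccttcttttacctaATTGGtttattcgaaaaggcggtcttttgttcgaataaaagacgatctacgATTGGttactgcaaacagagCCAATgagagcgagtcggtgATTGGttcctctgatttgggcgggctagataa
Ccnb2: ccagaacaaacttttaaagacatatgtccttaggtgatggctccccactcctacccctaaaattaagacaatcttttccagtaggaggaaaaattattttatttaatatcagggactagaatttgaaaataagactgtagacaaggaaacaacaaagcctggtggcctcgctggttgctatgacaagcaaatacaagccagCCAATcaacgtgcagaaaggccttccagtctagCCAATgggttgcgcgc
Aurkb: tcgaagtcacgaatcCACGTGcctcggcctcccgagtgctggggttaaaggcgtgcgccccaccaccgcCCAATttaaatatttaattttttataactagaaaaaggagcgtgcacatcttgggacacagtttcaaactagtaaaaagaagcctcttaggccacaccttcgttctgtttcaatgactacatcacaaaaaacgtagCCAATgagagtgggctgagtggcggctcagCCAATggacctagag
In the Top2a promoter the box stands 6 times, in the printed part of Ccnb2 2 times and in Aurkb 3 times, with 1 E box in Aurkb. The nuclear receptor element made of AGGTCA written in a row with 1 base between its copies was found in 0 of 88 DEG promoters (0.046% of all), its single element AGGTCA in 12.5% (15.1% of all), CACGTG in 6.82% (7.82% of all) and the sterol element TCACCCCAC in 1.14% (0.529% of all), with both strands searched. A match of the double element is also a match of the single one.

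The largest increase of all DEG was that of a protocadherin. Pcdh10 (ENSMUSG00000049100, chr3:45332833-45390058), which mediates cell adhesion, was measured at 1.94, 1.85, 0.959 and 0.682 FPM under AII + NA in sets 1 to 4 and 12.2, 8.11, 4.15 and 2.51 FPM under ALL stressors. The lowest ALL level, in set 4, was above the highest hormone-only level, in set 1 (log2FC 2.24, SE 0.25, edgeR FDR 0.000458). Pcdh11x (ENSMUSG00000034755, chrX:119199956-119820316), another protocadherin, was at 1.39, 1.64, 0.866 and 3.34 FPM under AII + NA in sets 1 to 4 and 8.44, 3.99, 3.35 and 7.06 FPM under ALL stressors. The groups were barely apart (log2FC 1.70, SE 0.27, edgeR FDR 0.00595), and the call was lost without set 3 (edgeR FDR 0.065). Gabra3 (ENSMUSG00000031343, chrX:71476275-71700723), an α subunit of the GABA type A chloride channel, stood at 17.2, 17, 20.6 and 27.4 FPM under AII + NA in sets 1 to 4 and 53.8, 37.4, 51 and 87.8 FPM under ALL stressors. The groups were apart (log2FC 1.44, SE 0.13, edgeR FDR 9.09e-05). The glutamate receptor gene Gria4 also rose, from 37.4, 47.6, 35.2 and 48.9 FPM to 108, 96.6, 60.1 and 89.1 FPM (log2FC 1.06, SE 0.12, edgeR FDR 0.000587), and was named after its values were seen.

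Dhrs3 (ENSMUSG00000066026, chr4:144619245-144654779), the reductase that returns retinaldehyde to retinol, was measured at 86.5, 60.5, 82.6 and 98.1 FPM under AII + NA in sets 1 to 4 and 319, 258, 171 and 205 FPM under ALL stressors. All ALL libraries were above all AII + NA libraries, and the ratio was larger in sets 1 and 2 than in sets 3 and 4 (log2FC 1.54, SE 0.18, edgeR FDR 0.000587). Slc6a6 (ENSMUSG00000030096, chr6:91660573-91736047), the taurine carrier, stood at 124, 93.6, 111 and 70.3 FPM under AII + NA in sets 1 to 4 and 300.1, 203, 253 and 147 FPM under ALL stressors. The groups did not overlap, and the ratio was alike in each set (log2FC 1.16, SE 0.12, edgeR FDR 0.000194). Zfp970, a zinc finger gene, went from 4.77, 7.25, 5.1 and 7.36 FPM to 17.3, 17.5, 16.2 and 20 FPM, again with the groups apart (log2FC 1.56, SE 0.22, edgeR FDR 0.00272). Multi-mapping reads were counted, so that the Zfp970 level may hold reads of similar genes. Art4, an ADP-ribosyltransferase of the cell surface, was among the 12 largest increases, with a log2FC of 1.11 ± 0.25 (SE), and was called in the omissions only without set 3. Dhrs3, Slc6a6, Zfp970, Gabra3 and Pcdh10 were called whichever set was left out.

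Among the genes that fell, Apod (ENSMUSG00000022548, chr16:31115010-31135355), a lipocalin that binds small lipids, was measured at 50.2, 38.9, 6.49 and 62.4 FPM under AII + NA in sets 1 to 4 and 16.7, 14.8, 1.66 and 26.7 FPM under ALL stressors. Each set fell, although the groups overlapped, with set 3 low throughout (log2FC -1.48, SE 0.15, edgeR FDR 0.000194). Aldh1a3 (ENSMUSG00000015134, chr7:66040638-66077850), which makes retinoic acid from retinaldehyde, stood at 64.8, 36.1, 11.6 and 25.9 FPM under AII + NA in sets 1 to 4 and 19.6, 15, 7.05 and 13.5 FPM under ALL stressors. It fell in each set, most in set 1 (log2FC -1.19, SE 0.16, edgeR FDR 0.0021). Lnx1 (ENSMUSG00000029228, chr5:74753108-74865274), a ubiquitin ligase of the Numb protein, showed the largest decrease at a low level, from 1.58, 9.88, 0.773 and 3.63 FPM to 0.40, 2.43, 0.242 and 1.37 FPM. Only set 2 was well above the rest under hormones alone (log2FC -1.76, SE 0.22, edgeR FDR 0.000808), and without set 2 the gene no longer reached 3 FPM on average. Apod and Lnx1 share 26.4% and 31.7% of their exonic bases with other genes. The imprinted long non-coding RNA H19 went from 43.2, 109.9, 24.8 and 337 FPM to 20.1, 41.5, 2.18 and 139 FPM, with set 3 falling furthest (log2FC -1.69, SE 0.36, edgeR FDR 0.0321), and it was called in the omissions only without set 3.

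One fibroblast marker and one collagen gene were among the DEG that fell. Pi16 (ENSMUSG00000024011, chr17:29536654-29549567), a peptidase inhibitor that marks adventitial fibroblasts, was at 70.4, 175, 41.5 and 469.7 FPM under AII + NA in sets 1 to 4 and 47.2, 94.3, 17.7 and 258 FPM under ALL stressors. It fell in each set (log2FC -0.90, SE 0.11, edgeR FDR 0.000596). Col5a3, a collagen V chain and the only DEG of 27 collagens and cross-linking enzymes, went from 38.5, 66, 14.4 and 38.6 FPM to 21.8, 26.4, 7.6 and 20.1 FPM (log2FC -1.0, SE 0.16, edgeR FDR 0.00442). Scara5, a ferritin receptor, changed by -1.06 ± 0.17 (log2FC, SE; without set 1, edgeR FDR 0.0506), and Itih5, which stabilizes hyaluronan, by -1.20 ± 0.28. Cd34 and Klf2, which fell too and were chosen here with their values known, are expressed by fibroblasts or endothelial cells among others. Cd34 went from 17.3, 80.7, 10.4 and 134 FPM to 8.38, 42.7, 5.12 and 71.6 FPM (log2FC -0.97, SE 0.12, edgeR FDR 0.000587), and Klf2, a flow-responsive transcription factor, from 23.1, 58.5, 21.6 and 30.9 FPM to 13.6, 23.1, 12 and 14.6 FPM (log2FC -1.01, SE 0.12, edgeR FDR 0.000587). Of the 6 fibroblast markers 1 was a DEG, Pi16 itself, with 1 higher and 2 lower at an unadjusted p under 0.05, and Dpt had a log2FC of -0.19, Dcn -0.13, Pdgfra -0.37 and Col14a1 0.29. Of the 7 endothelial markers, 2 were lower at an unadjusted p under 0.05, with a list median of -0.54. The part of a changed share of fibroblasts or endothelial cells in these decreases was not tested.

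Further large decreases were less firm. The interleukin 33 receptor gene Il1rl1 changed by -1.40 ± 0.30 (log2FC, SE), the deiodinase Dio2, which activates thyroid hormone, by -1.34 ± 0.27, Pdzd2 by -1.29 ± 0.29, the aminopeptidase gene Xpnpep2 by -1.45 ± 0.28 and the long non-coding RNA Gm15675 by -1.28 ± 0.19. Il1rl1 and Pdzd2 were called in the omissions only without set 1, Dio2 and Itih5 only without set 4, and Xpnpep2 in none, while Gm15675 was called in all 4 but shares 29.5% of its exonic bases with another gene. Over the whole list, 53, 50, 44 and 91 DEG were found without sets 1, 2, 3 and 4, and 43, 39, 39 and 59 of these were among the original 91. All 91 kept their direction in each omission, which follows from their one direction in 4 of 4 sets. Of the 91, 23 were called in all 4 omissions and 14 in none.

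Inflammatory and immediate early genes were lower in 1 set more than in the rest. Of 16 inflammatory genes, 10 were lower at an unadjusted p under 0.05 and 0 higher, with a median log2FC of -1.11, and Il1rl1 was the only DEG. The chemokine gene Ccl2 stood at 251, 374, 19.6 and 42.3 FPM under AII + NA in sets 1 to 4 and 148, 23, 11.3 and 45.9 FPM under ALL stressors. Set 1 was high in both conditions, and set 2 alone went from high to low (log2FC -1.60, SE 0.54, edgeR FDR 0.17), and Ccl7, Cxcl1 and Cxcl5 shared this, at 370.1, 105 and 67.3 FPM in the hormone-only library of set 2 and 25.4, 5.48 and 1.15 FPM in its ALL partner. The list medians of sets 1 to 4 were -0.31, -2.48, 0.15 and -0.19. Without set 2, 4 of the 16 were lower and 1 higher, with a median of -0.25. In the same library the acute phase gene Saa3, named after its values were seen, stood at 659.8 FPM against 4.29 FPM under ALL stressors, and the macrophage marker Adgre1 at 18.8 against 2.84 FPM. Adgre1 over all sets missed the threshold (log2FC -1.52, SE 0.35, edgeR FDR 0.0529), and of the 6 leukocyte markers 2 were lower and 1 higher at an unadjusted p under 0.05. The part of leukocytes in the set 2 difference was not tested.

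**Figure D3:**
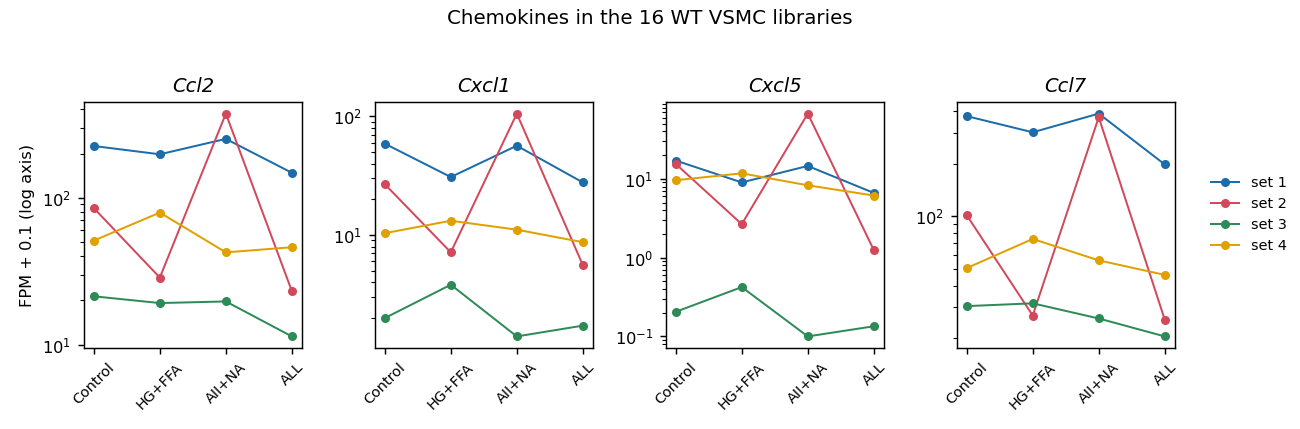
Chemokine genes in the 16 WT VSMC libraries, as FPM + 0.1 on a log axis by treatment, with the libraries of a set joined. In set 2 the AII + NA library stands above the other 3 of its set, with Ccl2 at 374 FPM against 23 FPM under ALL stressors, and in sets 1, 3 and 4 the lines are flatter.

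Among 25 immediate early genes and inhibitors of ERK signalling, 9 were lower and 0 higher at an unadjusted p under 0.05, and Jun, a subunit of the AP-1 factor, was the only DEG (log2FC -0.69 ± 0.12, SE). Without set 2 the count was 2 lower and 1 higher, without set 3 it was 4 lower and 1 higher, and without set 1 it was 13 lower with a median of -0.51 in place of -0.19. The Jun call was lost without set 2 (log2FC -0.50) or set 3 (edgeR FDR 0.065). Interferon-stimulated genes held 0 DEG of 16, with 5 lower at an unadjusted p under 0.05, 0 without set 1, 1 without set 2 and 11 without set 4. Sets 1 and 2 had list medians of -1.07 and -0.92, whereas those of sets 3 and 4 were 0.06 and 0.30. Of 23 genes of the ER stress and integrated stress responses, 9 were lower and 1 higher at an unadjusted p under 0.05, with a median of -0.11 (-0.21 without set 2, -0.18 without set 1 and -0.072 without set 3) and 0 DEG. Sdf2l1, an ER chaperone partner, was the only one to reach an FDR under 0.05 (log2FC -0.39, edgeR FDR 0.0247). Of 20 antioxidant and NRF2 genes, Aldh3a1 was the only DEG, and 1 was higher and 5 lower at an unadjusted p under 0.05.

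No contractile gene met the definition. Of 21 genes of the contractile apparatus and its regulators 0 were DEG and 1 had an unadjusted p under 0.05, and Acta2 had a log2FC of -0.19 ± 0.34 (SE), Cnn1 -0.19 ± 0.25 and Myh11 0.14 ± 0.20. Matrix genes had estimates on both sides. Of 27 collagens and cross-linking enzymes 7 were higher and 7 lower at an unadjusted p under 0.05, of 20 elastic and matricellular genes 5 and 3 (3 and 2 without set 2), and of 9 small leucine-rich proteoglycans 1 and 2. P4ha1, a collagen prolyl hydroxylase, had a log2FC of 0.34 (edgeR FDR 0.0448), Fbln1 one of -0.53 (0.0119) and Thbs2 one of 0.42 (0.0395), all under the size threshold. Among 24 hormone receptor and G protein signalling genes, Ramp2, the partner of the adrenomedullin receptor, fell (log2FC -0.64 ± 0.15, SE; 28.5% shared exonic bases; called in none of the 4 omissions), and Gucy1a1, a subunit of the nitric oxide receptor, had a log2FC of 0.63 (edgeR FDR 0.0403). Egfr was measured at 217, 304, 396 and 346 FPM under AII + NA in sets 1 to 4 and 241, 242, 394 and 362 FPM under ALL stressors (log2FC -0.03, SE 0.10, edgeR FDR 0.946), and of 10 ErbB receptors and ligands 0 were DEG.

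HG + FFA was also given without hormones in the same 4 sets, and that effect uses other libraries (HG + FFA against Control). All 91 DEG had the same sign there (70.1% of all genes did), and 89 had it with an unadjusted p under 0.05 (10.5% of all genes). HG + FFA on Control gave 48 DEG, of which 36 were DEG on hormones too, 75% of that list and 39.6% of the 91. The DEG found on hormones had a median size of 0.88 on hormones and 0.66 on Control, and the DEG found on Control 0.90 on Control and 0.92 on hormones. Over 12064 genes of at least 3 FPM the 2 effects correlated across genes with Pearson's r = 0.717, a description over genes that are not independent replicates. A test of the difference between the 2 effects gave 0 genes at an FDR under 0.05 by edgeR, with 290 at an unadjusted p under 0.05 (1.72%) and a smallest FDR of 0.99977. DESeq2 without a count filter gave 55, all of them at an average of under 3 FPM, and 0 of the 16905 genes tested.

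Per gene, Pdk4 had a log2FC of 1.52 on hormones and 1.52 on Control, Slc6a6 1.16 and 0.99, Apod -1.48 and -1.67, and Mylip -0.90 and -0.89. The list medians, on hormones and on Control, were 0.43 and 0.47 for cholesterol genes, 0.57 and 0.71 for mitotic genes, 0.37 and 0.25 for PPAR-responsive genes and -0.35 and -0.22 for LXR-responsive genes. On Control 21 of the 25 mitotic genes were higher at an unadjusted p under 0.05 (5.29% of all genes), and 6 of the 9 LXR-responsive genes were lower (5.9% of all genes). Of the 91, 7 differed between the 2 effects at an unadjusted p under 0.05, and all 7 had fallen on hormones. Lnx1 was one, with -1.76 on hormones and -0.65 on Control (unadjusted edgeR p 0.00202, FDR 1.0), and Aldh3a1 another, with -1.13 and -0.47 (unadjusted edgeR p 0.0205, FDR 1.0). Since the 91 were chosen by one of the 2 effects, nothing is read from that count.

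**Figure D4:**
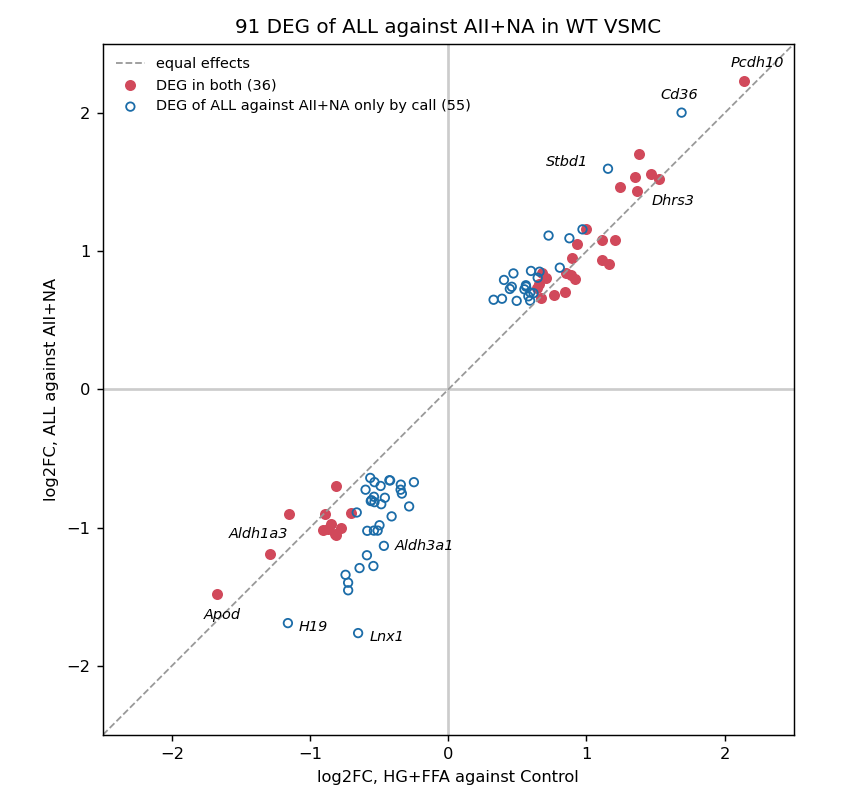
The 91 DEG by their log2FC under HG + FFA against Control (horizontal axis) and under ALL stressors against AII + NA (vertical axis) in WT VSMC, 1 point a gene, with filled points for the 36 that are DEG in both and a dashed line of equal effects. All 91 lie in the quadrants of equal sign, with Lnx1 far below the line.

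In KO VSMC, which lack EGFR through a Cre recombinase driven by the smooth muscle SM22 promoter, the same comparison of ALL stressors (n = 3) with AII + NA (n = 4) gave 53 DEG, 35 higher. Egfr was at 0.51 to 1.93 FPM in sets 6 to 8 and at 32.6 to 38.7 FPM in set 5, which has no ALL library. Of the 91 WT DEG, 86 had the same sign in KO VSMC (57.4% of all genes did), 49 with an unadjusted p under 0.05 there (8.18% of all genes), and 12 were DEG in KO VSMC too (0.302% of all genes). Their median log2FC in the direction of the WT call was 0.53 in KO VSMC and 0.88 in WT VSMC. Since the 91 were chosen by their WT effect, nothing is read from the smaller median. A test of the WT effect minus the KO effect gave 1 gene of 18339 at an FDR under 0.05 (0.00545%), Aldh3a1, with 1137 at an unadjusted p under 0.05 (6.2%).

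Aldh3a1 (ENSMUSG00000019102, chr11:61098363-61109247), an aldehyde dehydrogenase that clears lipid peroxidation products, was measured at 12.8, 44.9, 7.95 and 15 FPM under AII + NA in sets 1 to 4 and 6.65, 19.5, 3.84 and 5.82 FPM under ALL stressors. It fell in each WT set (log2FC -1.13, SE 0.19, edgeR FDR 0.00707; without set 2, edgeR FDR 0.0625). In KO VSMC it stood at 15.9, 69.9, 44.9 and 49.5 FPM under AII + NA in sets 5 to 8 and at 132, 65.8 and 103 FPM under ALL stressors in sets 6 to 8. There every complete set rose (log2FC 0.80, edgeR FDR 0.0115). The WT effect was different from the KO effect by -1.94 on the log2 scale (SE 0.245, edgeR FDR 0.000553), and without the pairing by set the difference was -2.33 with an edgeR FDR of 1.0. With complete sets only it was -1.99 (edgeR FDR 0.000878). WT and KO sets come from different animals. Dio2 also had opposite signs, -1.34 in WT and 0.77 in KO VSMC, but the difference missed the threshold (-2.10, edgeR FDR 0.0852). In KO sets 6 to 8 Dio2 was thinly counted, at 1.08, 0.65 and 1.29 FPM under AII + NA and 1.81, 1.29 and 2.55 FPM under ALL stressors. Anxa8, named after its values were seen, differed by -0.70 (edgeR FDR 0.0556), and by -0.76 (edgeR FDR 0.0102) when only complete sets were used.

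**Figure D5:**
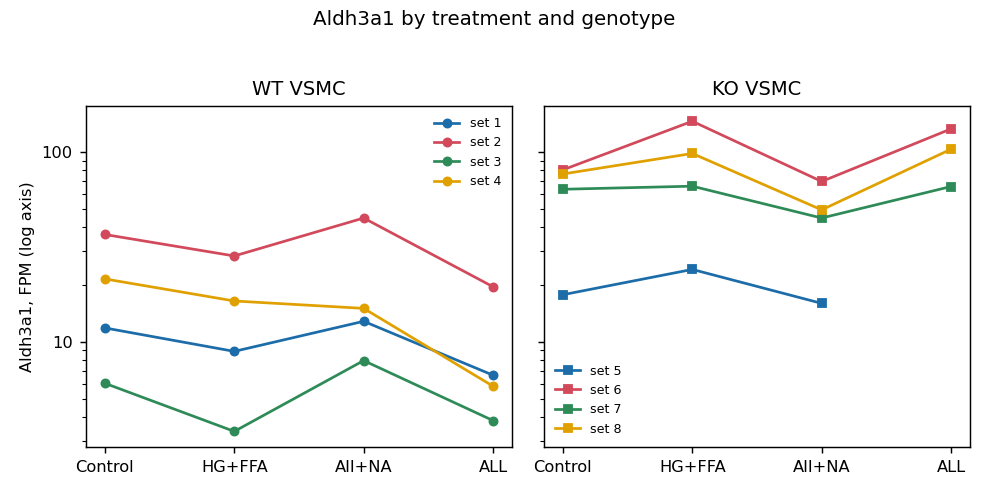
Aldh3a1 in FPM on a log axis, in each treatment of the WT VSMC sets 1 to 4 and the KO VSMC sets 5 to 8, with the libraries of a set joined. From AII + NA to ALL stressors the lines fall in all 4 WT sets and rise in the 3 KO sets that have both.

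In EC from the heart, with 9 AII + NA and 10 ALL libraries, the comparison gave 108 DEG, 43 higher. Sets 17 and 18 of the EC come from the same animal. Of the 91 WT VSMC DEG, 86 were measured in EC, 76 with the same sign (59.7% of all genes), 49 at an unadjusted p under 0.05 (12% of all genes) and 18 as DEG (0.63% of all genes). Their median log2FC in the direction of the WT VSMC call was 0.43 in EC. These genes were chosen by their WT VSMC effect, so nothing is read from the smaller median. Pdk4 had a log2FC of 1.11 in EC, Cpt1a 0.68 and Slc6a6 0.55. The median over PPAR-responsive genes was 0.64 in EC and 0.37 in WT VSMC, that over mitotic genes 0.15 and 0.57, and that over cholesterol genes 0.19 and 0.43, and these list differences were not tested. The test of the WT VSMC effect minus the EC effect gave 1 gene of 19362 at an FDR under 0.05 (0.00516%), Sgcd, which is not among the 91 DEG, with 837 at an unadjusted p under 0.05 (4.32%). Sgcd, which encodes the membrane protein δ-sarcoglycan of the muscle dystrophin complex, was measured at 2.27, 5.3, 1.05 and 3.41 FPM under AII + NA in sets 1 to 4 and 3.51, 6.86, 1.66 and 4.63 FPM under ALL stressors, higher in each set (log2FC 0.49). In EC its log2FC was -0.88, and the difference of 1.37 (SE 0.253, edgeR FDR 0.0491) was lost when the animal replaced the set as the block (edgeR FDR 0.502). The labels give VSMC and EC different batches, so that batch and cell type cannot be told apart, and the animals of sets 1 and 2 also gave EC, as sets 9 and 10. Sets 15 and 16 of the EC came from the animals of the KO sets 7 and 6, whose deletion is driven in smooth muscle.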

How the data were processed

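Poly(A) RNA was sequenced, and the authors deposited a table of raw read counts per gene. Per the labels and methods, reads were aligned with HISAT2 (2.1.0) to mm39 and counted over exons with featureCounts. Multi-mapping reads were included, and the strand setting is not given in the sources used here. Identifiers absent from the GENCODE annotation used for names took 0.0241% of the counts. These identifiers stayed in the fits but could not be DEG. FPM were computed from counts with TMM factors. edgeR (4.0.16) with filterByExpr and the set as a block was fitted to all 16 WT VSMC libraries, so that Control and HG + FFA libraries inform the spread and, through the set terms, the estimates, and DESeq2 (1.42.0) was run beside it in R 4.3.3. Same-numbered libraries come from the same animal, and their deviations correlated at 0.443 to 0.811 (different sets, -0.415 to 0.158). No libraries agreed within sampling noise. The gene lists and members were chosen with earlier results of these data known. Text names the 12 largest increases and decreases among DEG, DEG of each list with up to 4 further members by p, Egfr, and genes differing between effects, and some genes that meet this rule are not reported here. Ratios per set used a pseudocount of 0.1 FPM. The scripts were tested on simulated counts with known changes. Alternatives covered normalization, filters, thresholds, tool, block, libraries used and omission of each set. With 4 animals and the set as a block, p-values measure how treatment differences vary among those animals and their cultures. The block takes up the spread of levels between animals.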

Additional observations from a re-analysis of the deposited data

Results flagged for a closer look

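Of 39 groups of 4 values examined for one far from the rest, 2 had one, and chance gives about 1 in 20. H19 in set 3 had a log2 ratio of ALL stressors to AII + NA of -3.45, while the other sets lay between -1.40 and -1.10. Ccnb2 in set 1 had 0.33, with the others between 0.79 and 0.82. Aldh3a1 was singled out because its effect in WT VSMC and in KO VSMC differed in the test of the difference, by -1.94 on the log2 scale, and Sgcd because its effect in WT VSMC exceeded that in EC by 1.37.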

How the results depend on the processing

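Against 91 DEG, 205 were found with no size threshold, 35 with a log2FC of at least 1, 0 without the replicate block (432 genes at an unadjusted p under 0.05 in place of 2419) and 44 to 91 when a set was left out. The fit to the 8 libraries of ALL and AII + NA alone gave 69, of which 58 were among the 91, edgeR alone 91, DESeq2 alone 119, no FPM minimum 112, no count filter 121 and DESeq2 size factors 90. For the difference from HG + FFA on Control (0 genes), DESeq2 gave 55 and no count filter 70. For the difference from KO VSMC (1 gene), the fit without the replicate block gave 0, DESeq2 127 (94 of them at under 3 FPM) and complete sets only 2. For the difference from EC (1 gene), the fit without the block gave 0, the animal as block 0 and DESeq2 73 (53 at under 3 FPM). Signs turned for Myh11 (-0.020 to 0.20 over the omissions), Sox10 (-0.033 to 0.27) and Egfr (-0.10 to 0.065), none of them called. Without the block, 0 genes had an edgeR FDR under 0.05. Of 153 named genes, 54 lost it there, which is every named gene that had one. Without sets 1 to 4, 28, 33, 32 and 20 of these lost it, in part because fewer sets were fitted. Without set 2, 32 of 50 DEG were higher (64%), against 51.6% of the 91. The cause of these losses was not tested otherwise. At 23626664 to 32798206 counts a library, genes under 3 FPM were counted too thinly to enter the calls.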

Other observations

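Genes of the retinoid pathway, looked at after Dhrs3 and Aldh1a3 were seen among the DEG, divided by role. The retinaldehyde reductase Dhrs3 rose (log2FC 1.54 ± 0.18, SE), and 2 of the dehydrogenases that make retinoic acid fell, Aldh1a3 (-1.19 ± 0.16) and Aldh1a2 (-0.82 ± 0.16), whereas the third, Aldh1a1, had a log2FC of 0.57 ± 0.17 (edgeR FDR 0.118). Cyp26b1, which degrades retinoic acid, was measured at 41.2, 41.9, 26.9 and 31.4 FPM under AII + NA in sets 1 to 4 and 82.8, 92.2, 37.5 and 48.9 FPM under ALL stressors (edgeR FDR 0.0634). The receptor gene Rarb, itself a textbook retinoic acid target, was at 0.33, 0.355, 0.155 and 0.359 FPM under AII + NA in sets 1 to 4 and 1.48, 0.507, 0.691 and 0.706 FPM under ALL stressors, with the groups apart at under 3 FPM (edgeR FDR 0.092). Rara, Rarg and Rxra had log2FC of 0.03, 0.09 and 0.11.

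Besides Pcdh10 and Pcdh11x, the protocadherin gene Pcdh9 changed by 0.66 ± 0.14 (edgeR FDR 0.0309) and Pcdh7 had a log2FC of 0.49 ± 0.09 (edgeR FDR 0.0121), while the GABA type A receptor gene Gabre changed by 0.95 ± 0.18 (edgeR FDR 0.0179), beside Gabra3. In the omissions Pcdh9 was called only without set 2, Gabre only without set 1 and Aldh1a2 only without set 4. These genes were picked for their values.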
